A study of Mus musculus with 15 samples.

Results

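The genotype effect at 7 days post partum (dpp) was set against the genotype effect at 3 dpp in spermatogonia of mice that lack Akt1s1 (KO) and of wild-type mice (WT). The quantity is an interaction, the KO minus WT difference at 7 dpp minus the KO minus WT difference at 3 dpp, and it asks which genes and gene groups respond to the knockout at 1 of the 2 ages only. The groups were KO at 7 dpp (3 libraries, numbers 4, 5 and 6), WT at 7 dpp (2 libraries, 2 and 3), KO at 3 dpp (2 libraries, 16 and 18) and WT at 3 dpp (3 libraries, 13, 14 and 15). These are 10 of the 15 libraries of the series, and the adult libraries were not used here. Every mouse of both genotypes carried the Pou5f1-Gfp transgene, a green fluorescent reporter of the germ cell gene Pou5f1 (Oct4), and cells were sorted by that fluorescence from enzymatically dissociated testes. The genotype label of the KO mice is a null mutation of Akt1s1. Whether replicate libraries stem from different animals is not given, so p-values here reflect only library-to-library spread, part of which may be technical.

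Akt1s1 encodes PRAS40, a protein that binds the kinase complex mTORC1 and restrains it. mTORC1 senses nutrients and growth factors and, in many cell types, drives the making of ribosomes, proteins, lipids and mitochondria. In the mouse testis the days around 3 dpp are the time when prospermatogonia leave quiescence and settle on the basement membrane, and by 7 dpp the tubules hold dividing spermatogonia, some of them stem cells and some already differentiating. The adult stem cell pool is known to be sensitive to excess mTORC1 activity.

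For each gene the authors deposited a signal that behaves like TPM multiplied by a single factor per library, so the number of reads behind each library is unknown. Of 27128 gene names, 16306 reached a signal of 1 in 2 or more of the 10 libraries and were tested with limma on log2(signal + 1). All differences below are on that log2 scale, on which the change of weakly expressed genes is understated, and are given with their standard error (SE). Adjusted p-values are Benjamini-Hochberg values over all 16306 genes, and a change is called where the adjusted p is under 0.05. Column totals ran from 969003 to 1183294, and the 2 highest were those of the KO libraries at 3 dpp. The germ cell genes Ddx4 and Dazl were at a signal of 456 to 581 and 1050 to 1422 in all 10 libraries.

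Akt1s1 itself had a signal of 39.8, 39.5 and 37.2 in KO libraries and 54.5 and 72.9 in WT libraries at 7 dpp. At 3 dpp its signal was 35.2 and 33.4 in KO libraries and 52.4, 51.0 and 49.4 in WT libraries. It was lower in KO at each age with no overlap of libraries, and reads of the gene remained in the KO. The difference was -0.69 at 7 dpp (adjusted p = 0.104) and -0.56 at 3 dpp (adjusted p = 0.0335), and the interaction was -0.13 ± 0.17 (adjusted p = 0.739). Pou5f1, the gene whose promoter drives the sorted reporter, had a wide range, with 255 to 630 in KO and 550 and 945 in WT at 7 dpp, and 141 and 164 in KO and 158 to 234 in WT at 3 dpp, and its interaction was -0.44 ± 0.49 (adjusted p = 0.672).

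At 7 dpp few genes differed between the genotypes, and at 3 dpp many did. KO against WT at 7 dpp gave 20 called genes, 11 higher in KO (0.0675% of those tested) and 9 lower (0.0552%). At 3 dpp it gave 770, 278 higher in KO (1.70%) and 492 lower (3.02%). At an unadjusted p under 0.05 the counts were 599 higher (3.67%) and 339 lower (2.08%) at 7 dpp, and 1601 higher (9.82%) and 2279 lower (14.0%) at 3 dpp. Of the genes called at 7 dpp, 15 were also called at 3 dpp, all in the same direction, which is 75% of the calls at 7 dpp and 1.95% of those at 3 dpp. The 3 dpp count depended on single libraries: it was 97 without WT library 14, 126 without WT library 13, 193 without KO library 18 and 298 without KO library 6.

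The interaction itself, the test of whether the effect differed between the ages, called 8 genes, 4 above 0 (0.0245%) and 4 below 0 (0.0245%). At an unadjusted p under 0.05 it held 1718 genes above 0 (10.5%) and 1073 below 0 (6.58%). Of these 2791 genes, 1195 had an unadjusted p under 0.05 at 3 dpp only and were lower in KO there, and 774 were higher in KO at 3 dpp only. The counts for 7 dpp only were 179 higher and 94 lower, for opposite directions at the 2 ages 125, for the same direction 23, and for neither age 401. The genes called at 3 dpp had a median effect of 0.63 where higher and -0.70 where lower, and the same genes had a median effect at 7 dpp of 0.00 in both cases. These genes were picked for a large difference at 3 dpp, so a smaller effect at 7 dpp follows in part from that choice. The 2 medians therefore do not test whether the response was limited to 3 dpp. The split by age rests on p-values at each age, and a p over the threshold at 7 dpp does not show that a gene did not respond there.

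How many genes pass the interaction depended on the libraries and on the scaling. Without KO library 16 the count was 107 (83 above 0 and 24 below 0), without KO library 18 it was 33, without WT library 15 it was 15, without KO library 6 it was 5, and without WT library 3 it was 1. With libraries rescaled to equal totals the median interaction of all genes moved to 0.24, against 0.06 on the deposited scale, and 370 genes passed, 350 above 0 and 20 below 0. With all 15 libraries in the fit 421 passed, 293 above 0 and 128 below 0. A pseudocount of 0.1 gave 8 above 0 and 2 below 0, no filter gave 2 and 4, a minimum of 5 in place of 1 gave 5 and 3, and removal of each library's trend with transcript length and GC content 2 and 1.

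**Figure D1:**
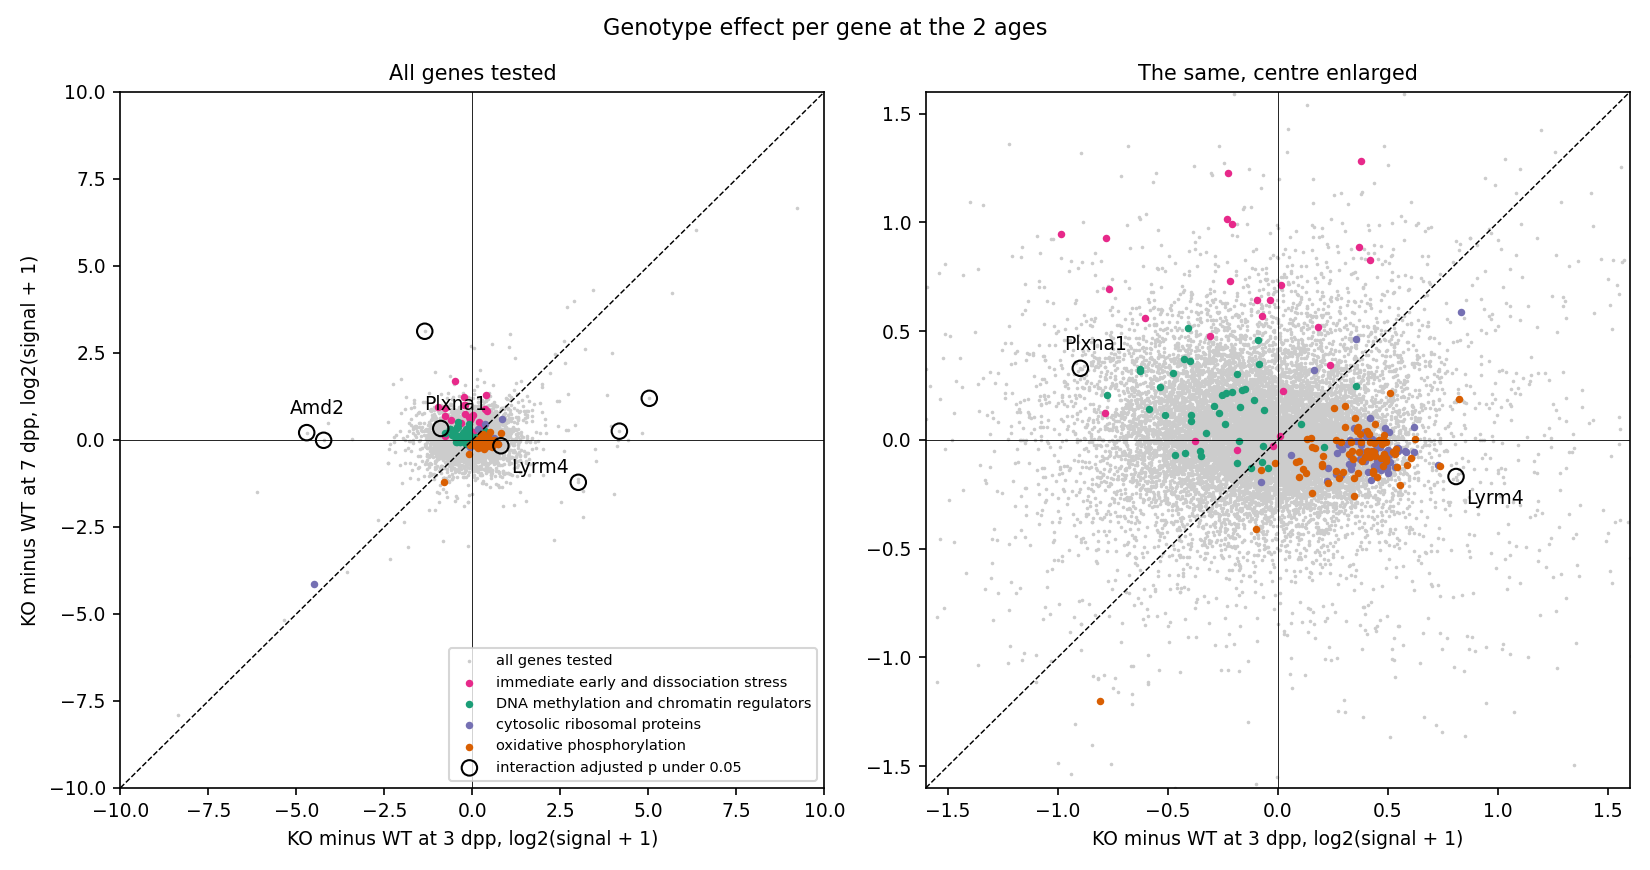
KO minus WT on the log2(signal + 1) scale at 7 dpp (vertical axis) and at 3 dpp (horizontal axis) for each of the 16306 genes, with 4 gene lists coloured and the 8 genes called by the interaction ringed. On the dashed line the effects are equal. Most ribosomal protein and oxidative phosphorylation genes lie right of 0 and near the horizontal axis, most chromatin regulators lie to the left and above, and most immediate early genes lie above.

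Of the 8 called genes, 5 are provisional gene models and 3 are annotated genes: Lyrm4, Plxna1 and Amd2. Lyrm4, also called Isd11, encodes a subunit of the mitochondrial machine that assembles iron-sulphur clusters. Its signal was 40.3, 42.6 and 44.5 in KO libraries and 46.1 and 49.6 in WT libraries at 7 dpp, and 71.0 and 71.5 in KO libraries and 38.4, 39.6 and 42.7 in WT libraries at 3 dpp. Both KO libraries at 3 dpp stood above every other library. The difference was -0.17 at 7 dpp (95% interval -0.38 to 0.04) and 0.81 at 3 dpp (adjusted p = 0.0036), and the interaction was -0.98 ± 0.14 (adjusted p = 0.0474).

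Plxna1 encodes plexin A1, a receptor subunit for semaphorins. It had a signal of 103, 106 and 109 in KO libraries and 80.7 and 88.2 in WT libraries at 7 dpp, and of 47.4 and 42.0 in KO libraries and 92.3, 90.2 and 71.1 in WT libraries at 3 dpp. The KO libraries were the higher ones at 7 dpp and the lower ones at 3 dpp, with no overlap at either age. The difference was 0.33 at 7 dpp (95% interval 0.06 to 0.60, adjusted p = 0.745) and -0.90 at 3 dpp (adjusted p = 0.00635), and the interaction was 1.23 ± 0.17 (adjusted p = 0.0474). The calls of Lyrm4 and Plxna1 sat near the threshold. Each was lost when any of KO libraries 4, 5, 6 and 18 or WT libraries 2, 3, 13 and 14 was left out, with adjusted p = 0.0512 to 0.173 for Lyrm4 and 0.0549 to 0.223 for Plxna1, and each passed without KO library 16 or WT library 15.

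Amd2, a copy of the gene for S-adenosylmethionine decarboxylase in polyamine synthesis, was listed at 0 in both KO libraries at 3 dpp. Its signal was 20.7, 20.4 and 34.3 in KO libraries and 28.4 and 15.4 in WT libraries at 7 dpp, and 23.8, 21.9 and 30.3 in WT libraries at 3 dpp. A value of exactly 0 can be a failed estimate, and reads of this gene can be shared with its near-identical copy Amd1, so the difference is uncertain. The interaction was 4.92 ± 0.40 (adjusted p = 0.00212), a size that depends on the pseudocount, being 8.20 with 0.1, and it passed in every alternative run.

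The genes next in order of the interaction p did not pass. Above 0 these were Atp7a, a copper transporter, with 1.11 ± 0.16 (adjusted p = 0.0644), the zinc finger gene Zfp609 with 0.97 ± 0.16, the deadenylase subunit Cnot6l with 0.94 ± 0.15 and the zinc transporter Slc39a9 with 1.43 ± 0.24 (adjusted p = 0.0889 for these 3). Each of the 4 fell at 3 dpp in KO, by 0.92, 0.65, 0.60 and 1.30 on the log2 scale in the order named. At an unadjusted p under 0.05, Zfp609 and Cnot6l were also higher in KO at 7 dpp, by 0.32 and 0.34, and Atp7a and Slc39a9 were not. Atp7a had a signal of 22.7, 21.5 and 20.8 in KO libraries and 19.8 and 17.8 in WT libraries at 7 dpp. At 3 dpp its signal was 10.8 and 10.6 in KO libraries and 21.4, 20.8 and 20.9 in WT libraries. The KO libraries at 3 dpp were the 2 lowest of the 10.

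Below 0 the next genes were the histone gene H2bu2 with -2.15 ± 0.36, the purine salvage enzyme Aprt with -0.82 ± 0.14, the selenoprotein Selenow with -0.78 ± 0.14, Fam209 with -2.60 ± 0.47 and Cox7a2 with -0.86 ± 0.16, none of them past the threshold (adjusted p = 0.0889 to 0.0924). All 5 rose at 3 dpp in KO (adjusted p = 0.0104 to 0.0304). Aprt and Fam209 were also lower in KO at 7 dpp at an unadjusted p under 0.05, with differences of -0.25 and -0.99. H2bu2, Selenow and Cox7a2 were not. H2bu2 and Fam209 were at low signals, the highest in any library being 4.18 and 10.5.

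**Figure D2:**
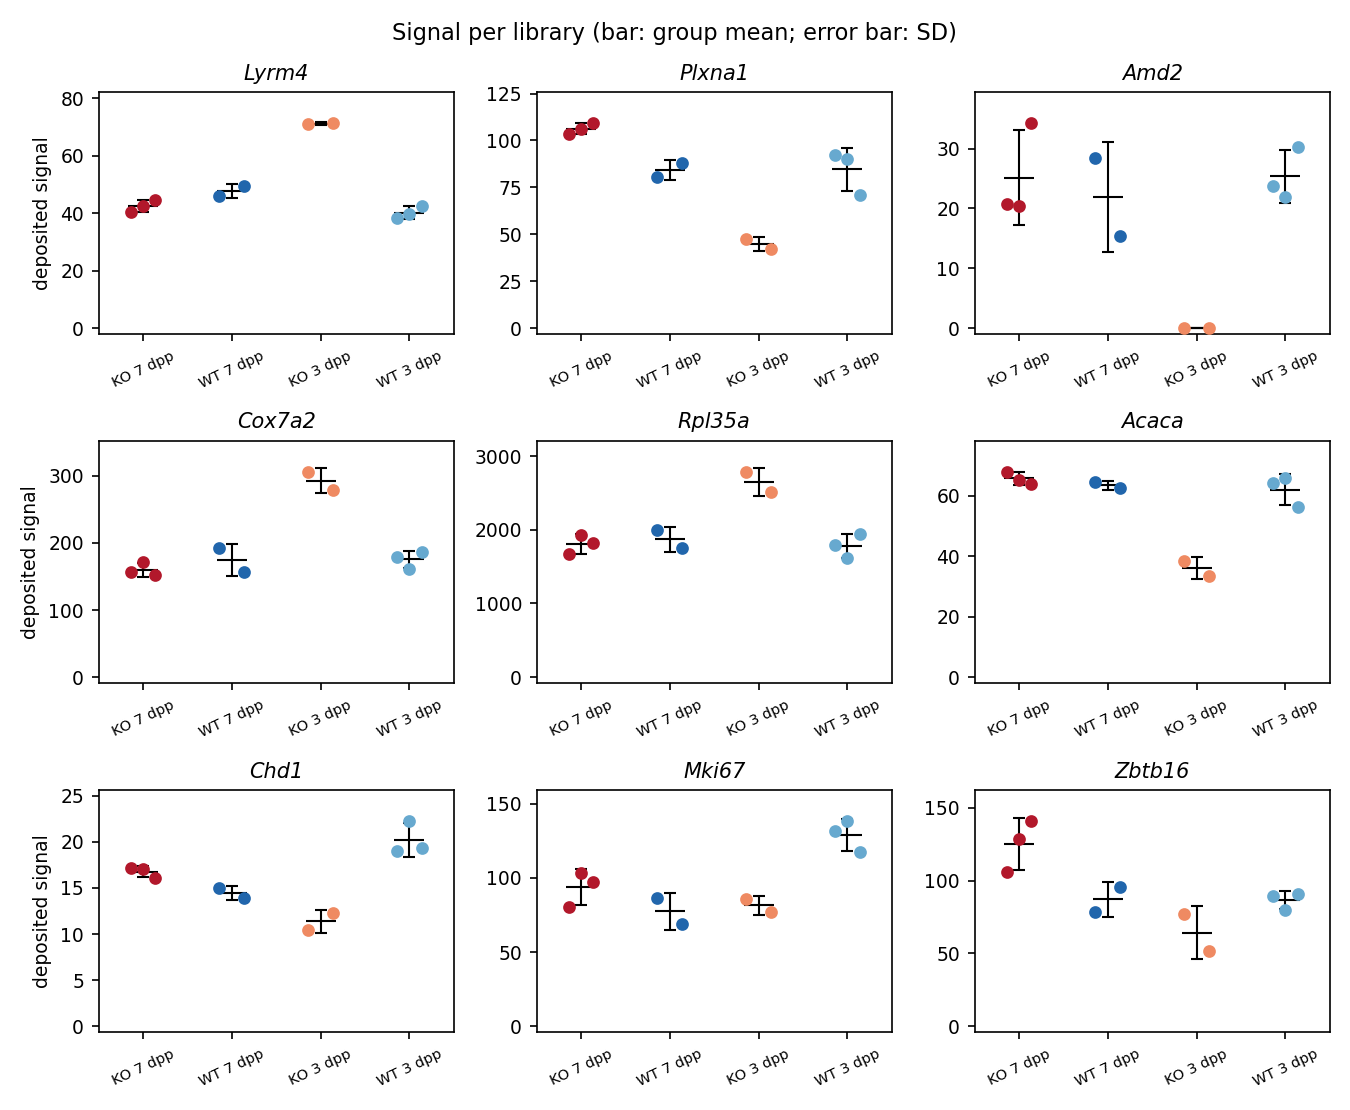
Deposited signal (vertical axes, starting just below 0) of 9 genes in each of the 10 libraries, with the group mean as a bar and the SD as an error bar. In Lyrm4, Cox7a2 and Rpl35a the KO libraries at 3 dpp stand above the other groups, and in Plxna1, Amd2, Acaca and Chd1 below them.

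Of the gene lists of protein and energy production, 4 had a median well above that of all genes at 3 dpp and near 0 at 7 dpp: oxidative phosphorylation, cytosolic and mitochondrial ribosomal proteins and the proteasome. Others did not. At 3 dpp the median was 0.00 over 37 ribosome biogenesis genes (1 rose, Fbl, and 1 fell, Utp20), 0.06 over 20 aminoacyl-tRNA synthetases (0 called, 2 higher and 2 lower at an unadjusted p under 0.05) and 0.00 over 21 glycolysis genes. The enzymes of oxidative phosphorylation, the respiratory chain and ATP synthase of mitochondria, had a median difference of -0.06 at 7 dpp and 0.37 at 3 dpp over 77 genes tested, against 0.01 and -0.05 over all genes. Their median interaction was -0.43 (all genes 0.06), all 77 had a negative interaction, and 38 (49.4%) had an unadjusted p under 0.05 below 0, where the share over all genes was 6.58%. None passed the adjusted threshold. At 3 dpp 15 of the 77 rose and 1 fell, where 1.70% of all genes rose and 3.02% fell. At 7 dpp 0 of the 77 rose and 1 fell. The gene that fell at both ages was the complex I subunit Ndufb7, with -1.20 ± 0.10 at 7 dpp and -0.81 ± 0.10 at 3 dpp.

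Cox7a2, a subunit of cytochrome c oxidase, had a signal of 157, 171 and 152 in KO libraries and 192 and 157 in WT libraries at 7 dpp, and of 306 and 279 in KO libraries and 179, 161 and 186 in WT libraries at 3 dpp. The groups overlapped at 7 dpp, and at 3 dpp both KO libraries were far above the WT ones. It rose by 0.74 ± 0.11 at 3 dpp (adjusted p = 0.0104), and its difference at 7 dpp was -0.12 (95% interval -0.36 to 0.13). Ndufa11 of complex I (0.56 ± 0.12) and Sdhb of complex II (0.43 ± 0.10) also rose at 3 dpp, with interactions of -0.76 ± 0.17 and -0.59 ± 0.14. Among the other risers at 3 dpp were the ATP synthase genes Atp5o (0.82 ± 0.13) and Atp5g2 (0.63 ± 0.11) and the oxidase subunit Cox5b (0.49 ± 0.10). The number of members that rose at 3 dpp was 1 without WT library 14, 2 without KO library 16 or 18, 3 without WT library 13, 4 without KO library 6 and 19 without WT library 15. By processing it was 3 with length and GC trends removed, 2 with quantile normalization or without the variance trend, 5 without the filter, 7 rescaled to equal totals and 34 with all 15 libraries.

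The cytosolic ribosomal proteins, the protein parts of the ribosome, behaved alike. Over 75 genes tested the median difference was -0.06 at 7 dpp and 0.43 at 3 dpp, and the median interaction was -0.47. Of the 75, 72 had a negative interaction, and 40 (53.3%) had an unadjusted p under 0.05 below 0. At 3 dpp 5 of the 75 rose and 0 fell, where 1.70% of all genes rose and 3.02% fell. The 5 were Rpl29, Rpl35a, Rplp1, Rps25 and Rpl17. Rpl29 had a signal of 1134, 1396 and 1383 in KO libraries and 1223 and 1490 in WT libraries at 7 dpp, and of 2150 and 2090 in KO libraries and 1402, 1301 and 1446 in WT libraries at 3 dpp. The KO libraries at 3 dpp were the 2 highest of the 10, and at 7 dpp the groups overlapped. Rpl29 rose by 0.62 ± 0.13 at 3 dpp (adjusted p = 0.0317), with an interaction of -0.67 ± 0.19 (adjusted p = 0.149). The 5 calls at 3 dpp became 0 when KO library 6, 16 or 18 or WT library 13 or 14 was left out, 3 without WT library 2 or 3, and 14 without WT library 15. They were 0 with quantile normalization, without the filter or without the variance trend, 3 with length and GC trends removed, 13 with a minimum of 5, and 39 with all 15 libraries. Many ribosomal protein genes have processed copies in the genome that can share reads, so single members are uncertain.

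The mitochondrial ribosomal proteins, which build the separate ribosome of mitochondria, had a median interaction of -0.40 over 76 genes, with a median difference of -0.08 at 7 dpp and 0.31 at 3 dpp. All 76 interactions were negative and 36 (47.4%) had an unadjusted p under 0.05, where 6.58% of all genes had one below 0. Over all genes 1.70% rose at 3 dpp and 3.02% fell. At 3 dpp 4 rose, Mrpl39 (1.10 ± 0.12), Mrpl4 (0.62 ± 0.15), Mrps24 (0.48 ± 0.11) and Mrps10 (0.39 ± 0.10), and the count was 1 without KO library 6 or 16 or WT library 13 or 14, 2 without KO library 18 and 13 without WT library 15. It was also 1 with quantile normalization, length and GC trends removed, no filter or no variance trend, 7 with a minimum of 5 and 21 with all 15 libraries. Mrpl39 was also higher in KO at 7 dpp, by 0.55 ± 0.12, without passing there (adjusted p = 0.22). The proteasome, the complex that degrades proteins, followed with a median interaction of -0.31 over 32 genes, 8 of them (25%) under an unadjusted p of 0.05 below 0 and 0 above. That median was -0.06 with quantile normalization (all genes -0.01) and -0.10 with libraries rescaled to equal totals (all genes 0.24). Its catalytic subunits Psmb5 (1.06 ± 0.14) and Psmb2 (0.47 ± 0.11) rose at 3 dpp, a count that was 1 without KO library 6, 16 or 18 or WT library 13 or 14, and 5 without WT library 15. It was 1 with quantile normalization, no filter or no variance trend, and 7 with all 15 libraries. Psmb5 had a difference of 0.62 ± 0.14 at 7 dpp (adjusted p = 0.264). The translation initiation and elongation factors were mixed: their median interaction was -0.24 over 45 genes, with 9 below 0 and 4 above 0 at an unadjusted p under 0.05. It was -0.02 with quantile normalization (all genes -0.01) and -0.03 rescaled (all genes 0.24). At 3 dpp Eif6 (0.54 ± 0.11), Eef1d (0.42 ± 0.10), Eif3k and Eif5a rose, and Eif3a (-0.48 ± 0.12) and Eif4g2 fell. This balance turned with the scaling: rescaled to equal totals 3 were higher and 11 lower with a 3 dpp median of -0.09, against 0.10 on the deposited scale. Of all 16306 genes, 189 were higher and 1972 lower at 3 dpp when rescaled. With quantile normalization 1 member was higher and 5 lower. No member passed without the filter or without the variance trend. The 4 that rose became 0 without KO library 6, 16 or 18 or WT library 13 or 14, and 7 without WT library 15, and of the 2 that fell at most 1 was counted with any library left out.

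Levels per library show the same ages. The median level of the oxidative phosphorylation genes against the WT mean of the age was -0.13, 0.06 and -0.13 in KO libraries and 0.01 and -0.01 in WT libraries at 7 dpp, and 0.41 and 0.33 in KO libraries and 0.02, -0.11 and 0.10 in WT libraries at 3 dpp. For cytosolic ribosomal proteins it was -0.20, 0.06 and -0.03 in KO and -0.07 and 0.07 in WT at 7 dpp, and 0.48 and 0.38 in KO and 0.01, -0.14 and 0.11 in WT at 3 dpp. In both lists the KO libraries at 3 dpp stood apart from the WT libraries of that age and those at 7 dpp did not. With libraries rescaled to equal totals the 3 dpp median was 0.19 for oxidative phosphorylation, 0.24 for cytosolic and 0.12 for mitochondrial ribosomal proteins. Their median interactions were then -0.22, -0.26 and -0.20, against 0.24 over all genes. At 3 dpp 7 cytosolic members were then called higher and 1 lower, and 3 and 0 mitochondrial ones, where 189 and 1972 of all 16306 genes were.

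**Figure D3:**
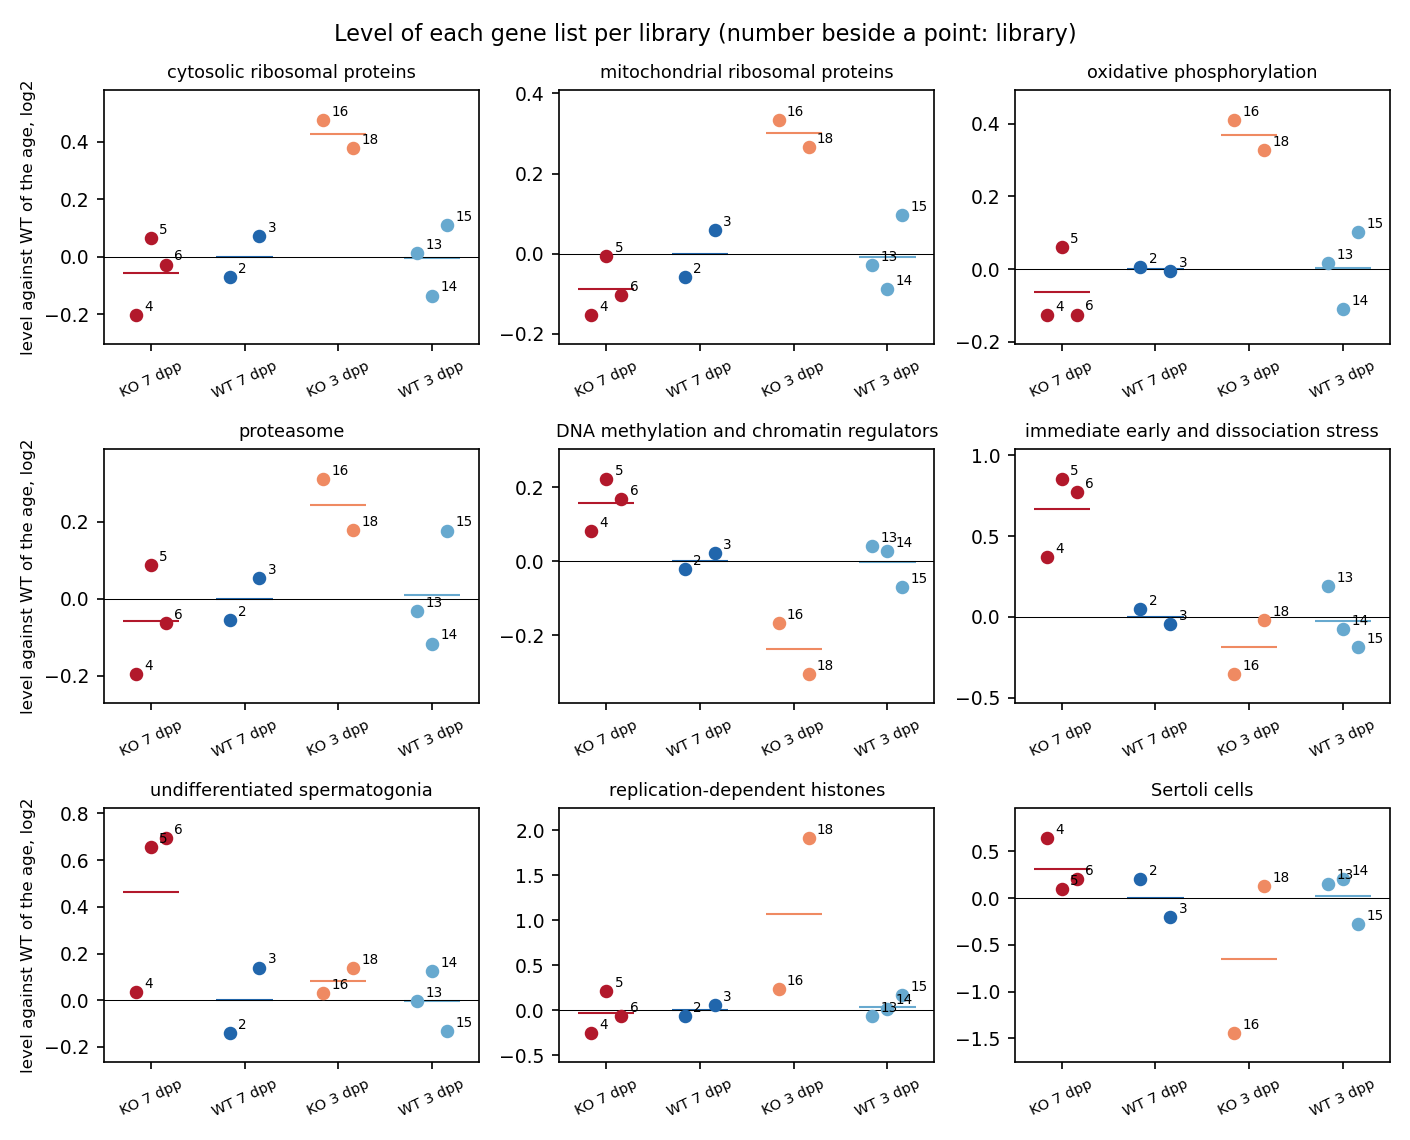
Median level of 9 gene lists in each library, as the log2(signal + 1) difference from the WT mean of the same age (vertical axes differ in range). Each point is a library with its number, and the bar is the group mean. The KO libraries at 3 dpp stand together above WT in the first 3 lists, and they stand far from each other for histones (0.23 and 1.91 in libraries 16 and 18) and Sertoli cell genes (-1.44 and 0.13).

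These groups are made of short and abundant transcripts, and length and level moved with the interaction over all genes. In the shortest of 5 equal groups of 14049 genes with a known length, of median 640 bases, the median interaction was -0.08, and it was -0.05, 0.00, 0.11 and 0.28 in the next groups up to a median of 3511.5 bases. Genes with a mean signal of 500 or more, cytosolic ribosomal proteins left out, had a median interaction of -0.33 over 222 genes, against -0.07 between 50 and 500, 0.14 between 5 and 50 and 0.10 under 5. The median length was 607 bases for oxidative phosphorylation and 628.5 for cytosolic ribosomal proteins. With the length and GC trends of each library removed the list medians were -0.41 and -0.42, against -0.04 over all genes. On the deposited scale they were -0.43 and -0.47, against 0.06. Fewer list members passed at 3 dpp with the trends removed (3 in each list, against 15 and 5). With quantile normalization the list medians were -0.20 and -0.03 against -0.01 over all genes, so the ribosomal protein difference was nearly absent on that scale. The part of RNA quality or library preparation in these trends was not tested.

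**Figure D4:**
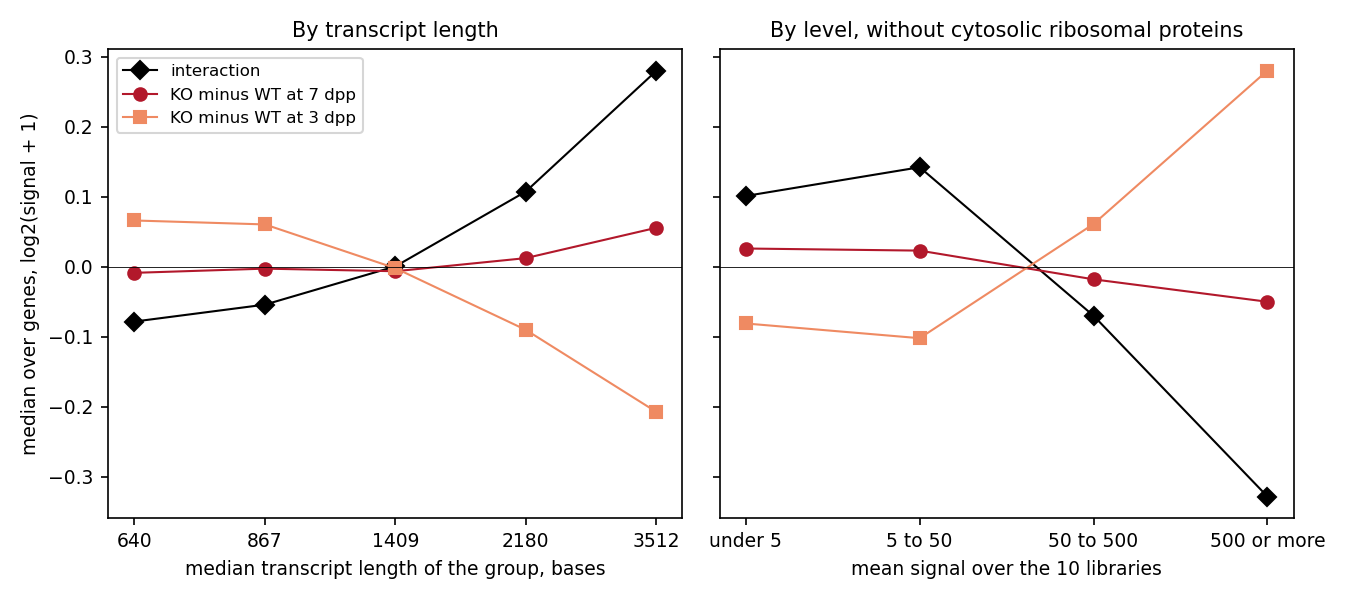
Median interaction and median KO minus WT difference at 7 dpp and at 3 dpp (log2 scale, vertical axis) over genes grouped by transcript length (left, 5 groups of 2809 or 2810 genes, labelled by their median length) and by mean signal (right, cytosolic ribosomal proteins left out). The 3 dpp difference falls with length and is highest in the most abundant genes, while the 7 dpp difference stays near 0.

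Many mRNAs of the translation machinery begin with a C and a run of pyrimidines, the terminal oligopyrimidine tract, known as a feature that mTORC1 acts on in translation. A tract was searched on the transcribed strand only, as a C within 4 bases of a RefSeq transcript start (GRCm38.p6) followed by at least 4 C or T. It was present in 26 of the 55 tested ribosomal protein genes with a RefSeq start (47.3%), in 13 of 65 oxidative phosphorylation genes (20%), in 10 of 67 mitochondrial ribosomal protein genes (14.9%) and in 1877 of 10651 genes tested (17.6%). The median interaction of the ribosomal protein genes was -0.46 with the tract and -0.47 without it, and over all genes it was 0.06 in both cases. By this search the ribosomal protein genes Rps25, which rose at 3 dpp, Rpl37a and Rps13 have no tract at their 1 listed start and are not shown. In Rps25 a C followed by a run of T and C lies further upstream of that start than the search allowed. A gene counted as without the tract can therefore have one nearby. The medians above do not cleanly compare genes that have the tract with genes that lack it. The 30 bases from 18 before the start onward are shown for Rpl35a, which rose at 3 dpp and has the tract at 1 of its 3 listed starts, and for 2 genes of the mitochondrial lists that rose at 3 dpp and have none, with the tract in capitals.
Rpl35a, chr16:33056464-33056493, plus strand: gcggcggggcttgcCTTCCTCTTTCCgcca
Cox7a2, chr9:79759842-79759871, minus strand: ttcggaggtccggaggctagacgggccgct
Mrps10, chr17:47369179-47369208, plus strand: agagccctccctccacggtagagagggcca
These are letters of a reference genome at annotated starts and no measurement of the starts used in these cells.

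The opposite direction at 3 dpp, lower in KO, was that of DNA methylation and chromatin regulators, and this list was also somewhat higher in KO at 7 dpp. Over 40 genes tested the median difference was 0.15 at 7 dpp and -0.25 at 3 dpp, and the median interaction was 0.39. At 7 dpp 29 of the 40 differences were positive. At an unadjusted p under 0.05, 9 were higher and 0 lower there, where 3.67% and 2.08% of all genes were, and 0 were called. Of the 40, 34 had a positive interaction and 21 (52.5%) had an unadjusted p under 0.05 above 0, where the share over all genes was 10.5%. None passed the adjusted threshold. At 3 dpp 3 fell: the chromatin remodeller Chd1 (-0.78 ± 0.13), and the histone demethylases Kdm4a (-0.63 ± 0.14) and Kdm5a (-0.47 ± 0.12), and this count was 0 without WT library 13 or 14, 1 without KO library 5, 6 or 18, and 6 without WT library 15. Rescaled to equal totals 22 of the 40 were lower at 3 dpp and 6 passed the interaction, with all 15 libraries 9 and 5 did, and with length and GC trends removed, no filter or no variance trend 1 was lower and 0 passed the interaction. Of all 16306 genes, 1972 were lower and 350 passed the interaction above 0 when rescaled, and 1196 and 293 with all 15 libraries. On the deposited scale 3.02% of all genes fell at 3 dpp. Chd1 had a signal of 17.1, 17.1 and 16.1 in KO libraries and 14.9 and 13.9 in WT libraries at 7 dpp, and of 10.5 and 12.3 in KO libraries and 18.99, 22.3 and 19.4 in WT libraries at 3 dpp. Its KO libraries were the higher ones at 7 dpp and the lower ones at 3 dpp. Arid1a, a subunit of the BAF remodelling complex, had the same order with an interaction of 0.92 ± 0.21 (adjusted p = 0.113), and passed at neither age. The median transcript length of this list was 1874.5 bases, above the 1409 bases of the middle length group. With length and GC trends removed the list median was 0.32, against -0.04 over all genes.

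Acaca, Scd2 and Hk2, single genes of lipid and sugar metabolism, fell at 3 dpp, and their lists as a whole did not move with them. Acaca, the enzyme that commits acetyl-CoA to fatty acid synthesis, had a signal of 68.0, 65.3 and 64.0 in KO libraries and 64.4 and 62.5 in WT libraries at 7 dpp, and of 38.6 and 33.4 in KO libraries and 64.1, 65.7 and 56.3 in WT libraries at 3 dpp. It fell by 0.77 on the log2 scale at 3 dpp (SE 0.10, adjusted p = 0.00635), its difference at 7 dpp was 0.05 (95% interval -0.18 to 0.28), and its interaction was 0.82 ± 0.15 (adjusted p = 0.0924). The groups overlapped at 7 dpp and stood apart at 3 dpp. The fatty acid desaturase gene Scd2 also fell at 3 dpp (-0.70 ± 0.15), and 1 of the list passed there without KO library 6, 16 or 18 or WT library 13 or 14. The sterol and fatty acid list as a whole had a median interaction of -0.10 (all genes 0.06). At an unadjusted p under 0.05, 5 of 29 genes were above 0 (17.2%, all genes 10.5%) and 3 below 0 (10.3%, all genes 6.58%). The list median was 0.11 with libraries rescaled to equal totals, where that of all genes was 0.24. The first glycolytic enzyme gene Hk2 fell at 3 dpp (-0.81 ± 0.16), with 31.3, 39.6 and 34.4 in KO libraries and 31.2 and 32.5 in WT libraries at 7 dpp, and 36.9 and 32.2 in KO libraries and 66.4, 71.1 and 48.3 in WT libraries at 3 dpp. The groups overlapped at 7 dpp and not at 3 dpp, and the call was lost without KO library 6 or 18 or WT library 13 or 14. Of the 21 glycolysis genes, 4 were higher and 1 lower in KO at 3 dpp at an unadjusted p under 0.05, where 9.82% and 14.0% of all genes were. Gpi1, the next enzyme of the pathway, had a difference of 0.42 ± 0.11 at 3 dpp (adjusted p = 0.0624).

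Of 48 tested genes of the mTOR pathway, 12 (25%, all genes 10.5%) had an interaction above 0 and 3 (6.25%, all genes 6.58%) below 0 at an unadjusted p under 0.05. The list median was 0.16 (all genes 0.06). At 3 dpp 1 rose, Lamtor1 (0.74 ± 0.11), part of the lysosomal scaffold of mTORC1, and 3 fell, where 1.70% and 3.02% of all genes did. These were Akt1s1 itself, Pdpk1 (-1.12 ± 0.18), the kinase that activates AKT, and Depdc5 (-0.36 ± 0.08), part of the GATOR1 complex that inhibits mTORC1. The 3 that fell were 0 without WT library 14, 1 without KO library 6, 16 or 18 or WT library 13, and 2 without WT library 2 or 3 or KO library 5. Rescaled to equal totals 1 was higher and 17 were lower, 4 passed the interaction and the median interaction was 0.36 (all genes 0.24). With all 15 libraries 2 were higher, 12 were lower and 4 passed the interaction. Of all 16306 genes, 189 were higher, 1972 lower and 350 passed the interaction above 0 when rescaled. With all 15 libraries these numbers were 743, 1196 and 293. Pdpk1 had a signal of 27.9, 30.4 and 31.6 in KO libraries and 26.3 and 29.4 in WT libraries at 7 dpp, and of 18.7 and 11.1 in KO libraries and 29.6, 33.2 and 35.3 in WT libraries at 3 dpp. The KO libraries at 3 dpp were the 2 lowest, and at 7 dpp the groups overlapped. The insulin receptor substrate Irs2 was higher in KO at 7 dpp and lower at 3 dpp without overlap, and its interaction of 1.59 ± 0.35 did not pass (adjusted p = 0.108). At 7 dpp 0 of the 48 genes were called, and 4 were higher and 1 lower at an unadjusted p under 0.05.

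Genes of cell division and meiosis changed at 3 dpp in part. Of 50 cell cycle genes, 0 rose and 7 fell at 3 dpp: Knl1 (-1.10 ± 0.16), Cenpe, Kif20b, Cenpf, Mki67, Anln and Ect2, most of which act at kinetochores, the spindle or in cytokinesis. Mki67, the proliferation marker Ki-67, had a signal of 80.5, 104 and 97.2 in KO libraries and 86.3 and 68.8 in WT libraries at 7 dpp, and of 85.9 and 77.0 in KO libraries and 132, 139 and 117 in WT libraries at 3 dpp. It fell by 0.66 on the log2 scale at 3 dpp (SE 0.14), and its interaction was 0.93 ± 0.19 (adjusted p = 0.104). The list's median difference was 0.02 at 3 dpp, so the 7 genes do not stand for the list, and the count was 0 without KO library 18, 1 without WT library 14, 3 without WT library 13 and 4 without KO library 6 or 16. Rescaled to equal totals 14 were lower and 7 passed the interaction, with quantile normalization 10 were lower, with length and GC trends removed 4 and without the variance trend 3. Over all genes 3.02% fell at 3 dpp, and when rescaled 1972 of 16306 were lower and 350 passed the interaction above 0. Of 36 meiotic prophase genes, 5 fell at 3 dpp: Mybl1 (-1.23 ± 0.20), the synaptonemal complex genes Sycp1 (-0.69 ± 0.12) and Sycp2, Meioc and the cohesin Smc1b. This count was 0 without WT library 13, 1 without WT library 14 or KO library 18 and 3 without KO library 16. With length and GC trends removed 1 fell and the 3 dpp median of the list was 0.05, against -0.17 on the deposited scale, and rescaled to equal totals 12 fell.

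Genes that differed at 7 dpp and not at 3 dpp were few. Of the list members, Ccnb1ip1, a gene needed for meiotic crossing over, was the only one called at 7 dpp and not at 3 dpp. It had a signal of 16.0, 20.6 and 16.5 in KO libraries and 34.2 and 31.1 in WT libraries at 7 dpp, and of 24.9 and 24.2 in KO libraries and 27.6, 27.3 and 28.6 in WT libraries at 3 dpp. It fell by 0.86 on the log2 scale at 7 dpp (SE 0.13, adjusted p = 0.0388), against a difference of -0.17 at 3 dpp (95% interval -0.46 to 0.11), and its interaction of -0.68 ± 0.18 did not pass (adjusted p = 0.144).

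As groups, the undifferentiated spermatogonia genes and the immediate early genes were higher in KO at 7 dpp, with no single member called. Over 35 genes that mark undifferentiated spermatogonia, the stem and progenitor cells of the testis, the median difference was 0.42 at 7 dpp and 0.08 at 3 dpp, and 30 of 35 interactions were positive with a median of 0.39. At an unadjusted p under 0.05, 13 of the 35 were higher and 0 lower at 7 dpp, and 5 (14.3%) had an interaction above 0, which is near the 10.5% of all genes, whereas 3.67% of all genes were higher at 7 dpp. The median interaction was 0.64 without KO library 4 and 0.63 without WT library 3. It was 0.30 without KO library 5 and 0.31 without KO library 6. Zbtb16 (PLZF), a transcription factor of spermatogonial stem cells, had a signal of 106, 128 and 141 in KO libraries and 78.5 and 95.7 in WT libraries at 7 dpp, and of 77.0 and 51.5 in KO libraries and 89.2, 79.6 and 91.0 in WT libraries at 3 dpp. The KO libraries were the higher ones at 7 dpp and the lower ones at 3 dpp, and the interaction was 0.97 ± 0.25 (adjusted p = 0.14). Cdh1 (E-cadherin) had 1.29 ± 0.41 and the transcription factor Foxo1 0.56 ± 0.19. The level of the list was uneven among the KO libraries at 7 dpp, with 0.03, 0.66 and 0.70 in libraries 4, 5 and 6, against -0.14 and 0.14 in the WT libraries. In bulk samples fewer cells of a type and less RNA per cell cannot be told apart. Markers of other cell types were also higher in KO at 7 dpp, 23 of 23 for Sertoli cells (median difference 0.23), 9 of 10 for Leydig cells (0.40), 10 of 10 for peritubular myoid cells (0.26), 14 of 17 for stromal fibroblasts (0.12), 9 of 9 for endothelial cells (0.30), 10 of 12 for macrophages (0.37) and 3 of 3 for erythroid cells (2.66), none of them called. Their part in the result was not tested.

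The 25 immediate early and dissociation stress genes, which are switched on within minutes of a stimulus and also when tissue is dissociated, had a median difference of 0.64 at 7 dpp and -0.19 at 3 dpp. Of their interactions 24 were positive and 12 (48%, all genes 10.5%) had an unadjusted p under 0.05, all above 0. At that p, 14 were higher and 0 lower at 7 dpp, where 3.67% and 2.08% of all genes were. Socs3, an inhibitor of cytokine signalling, had a signal of 18.5, 29.4 and 35.5 in KO libraries and 12.0 and 13.6 in WT libraries at 7 dpp, and of 26.6 and 32.4 in KO libraries and 38.3, 34.4 and 31.4 in WT libraries at 3 dpp. Its difference at 7 dpp was 1.02 (95% interval 0.52 to 1.51, adjusted p = 0.227). The stress factor Atf3 had a difference of 1.68 at 7 dpp and -0.51 at 3 dpp, and Klf4 0.48 and -0.31. These genes moved beside the undifferentiated list in the same libraries, with list levels of 0.37, 0.85 and 0.77 in KO libraries 4, 5 and 6 and 0.05 and -0.05 in the WT libraries at 7 dpp. The lists share 1 gene, Egr2, and the undifferentiated list holds Pou5f1, whose reporter was sorted on. The part of tissue dissociation in either list was not tested.

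**Figure D5:**
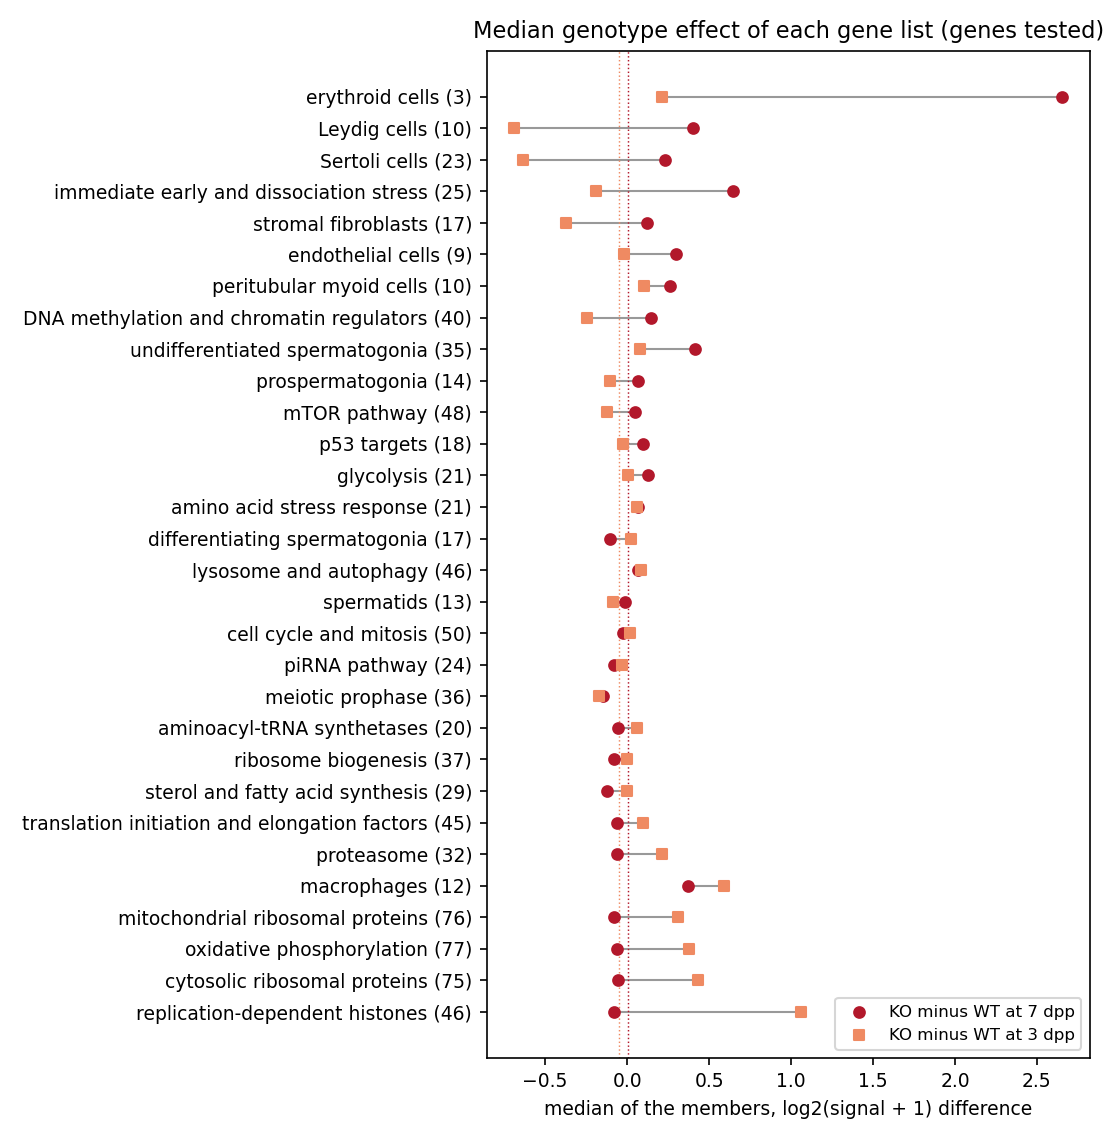
Median KO minus WT difference of each of the 30 gene lists at 7 dpp (circles) and at 3 dpp (squares), on the log2(signal + 1) scale, with the number of genes tested and lists ordered by their median interaction. Dotted lines are the medians of all genes at each age. The cytosolic and mitochondrial ribosomal protein, oxidative phosphorylation and proteasome lists are between -0.08 and -0.06 at 7 dpp and between 0.21 and 0.43 at 3 dpp.

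Germ cell lists of other stages had mixed directions. Over all genes, 10.5% of interactions were above 0 and 6.58% below 0 at an unadjusted p under 0.05. The differentiating spermatogonia genes had 3 of 17 interactions above 0 and 4 below 0 at an unadjusted p under 0.05, and among them Sohlh2, a transcription factor of the onset of differentiation, was at -0.45 ± 0.16 and Nr6a1 at 0.50 ± 0.16. The prospermatogonia genes had 2 of 14 in each direction, among them the de novo DNA methyltransferase Dnmt3a with 0.39 ± 0.14 and the RNA-binding protein gene Dnd1 with -0.44 ± 0.14. Of the piRNA pathway, which silences transposons in germ cells, 1 of 24 was above 0 and 4 below 0. Its member Gtsf1 rose at 3 dpp (0.45 ± 0.10, adjusted p = 0.0326), with an interaction of -0.69 ± 0.14 (adjusted p = 0.103), and that rise did not pass without KO library 6, 16 or 18 or WT library 13 or 14.

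The replication-dependent histone genes had the lowest list median, -0.82 over 46 genes, with a median difference of 1.06 at 3 dpp. At that age 9 of them rose, where 1.70% of all genes did. The 2 KO libraries at 3 dpp differed here: the list level was 0.23 in KO library 16 and 1.91 in KO library 18, and the median interaction without KO library 18 was -0.32. The 9 that rose were 3 without KO library 18 or WT library 14 and 5 without WT library 13. H4c3 and H2bc11 rose at both ages. Histone genes are near-identical copies that can share reads, so single members are uncertain. Histone mRNAs lack a poly(A) tail, and the libraries were made with an mRNA kit. In KO library 18 the 10 highest genes also held 8.2% of the signal, the highest share of the 10 libraries. The part of library preparation in the histone result was not tested.

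Markers of other testis cells differed in direction, with a median interaction of 0.00 for spermatids and -0.33 for macrophages and above 0 for the other 6 lists. All 23 tested Sertoli cell genes had a positive interaction, with a median of 0.93, and 4 (17.4%, against 10.5% above 0 over all genes) had an unadjusted p under 0.05. Their summed signal was 1593 to 2671 in KO and 1247 to 1825 in WT libraries at 7 dpp, and 508 and 1914 in KO libraries 16 and 18 and 1192 to 1751 in WT libraries at 3 dpp. The low value of KO library 16 weighed on the median, which was 0.19 without that library, 1.76 without KO library 18 and 0.61 without WT library 3. At 3 dpp 0 of the 23 passed, and 9 passed as lower in KO without KO library 18. Kitl, the Sertoli cell ligand of the receptor KIT, had a signal of 20.02, 15.6 and 18.5 in KO libraries and 19.8 and 11.8 in WT libraries at 7 dpp, and 2.94 and 9.85 in KO libraries and 14.6, 15.2 and 13.6 in WT libraries at 3 dpp. No Sertoli marker was at 0 in any of the 10 libraries. The oxidative phosphorylation median was -0.38 without KO library 16 and -0.47 without KO library 18, and the chromatin regulator median 0.49 and 0.34, and each kept its sign without either library.

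Leydig cell genes were high in single libraries, with an interaction median of 1.09 over 10 genes and none under an unadjusted p of 0.05. The median was 0.37 without WT library 13, 0.53 without KO library 16, 0.63 without KO library 6 and 1.79 without KO library 18. Their summed signal was 480 to 635 in KO and 426 and 475 in WT libraries at 7 dpp, and 260.4 and 720.3 in KO and 417 to 1101 in WT libraries at 3 dpp. The steroidogenic gene Cyp17a1 was at 60.8 in WT library 13 and 14.6 in KO library 6, and at 1.76 or less in the other 8 libraries. For the interaction, the macrophage, endothelial, peritubular, stromal and erythroid lists had at most 1 gene in each direction under an unadjusted p of 0.05. At that p 2 of 9 endothelial and 2 of 3 erythroid genes were higher in KO at 7 dpp, where 3.67% of all genes were. At 3 dpp 2 of 12 macrophage genes were higher and 2 of 17 stromal fibroblast genes lower, where 9.82% and 14.0% of all genes were. The summed erythroid signal was 25.9 to 53.9 in KO and 3.54 and 11.5 in WT libraries at 7 dpp, and 3.72 and 29.1 in KO and 3.48 to 16.5 in WT libraries at 3 dpp. The part of these cells in the interaction was not tested.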

How the data were processed

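RNA was sequenced from sorted Oct4-GFP+ spermatogonia. The deposited signal per gene was made by the authors with Trim Galore, kallisto, DESeq2 and mm10, per the submitters' processing notes, and versions and settings are not given in the sources used here. From that signal, log2(signal + 1) was fitted with limma 3.58.1 in R 4.3.3 (1 mean per group, mean-variance trend, 6 residual and 4.54 prior degrees of freedom) for genes reaching a signal of 1 in 2 or more of the 10 libraries, with Benjamini-Hochberg adjustment and a threshold of 0.05. The tests were two-sided. The signal is not counts, so no count test was run and the depth is unknown. The script was tested on simulated data.

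Of 27128 gene names, 15697 matched a RefSeq symbol, 5027 a synonym and 6404 nothing, and 8351 are provisional names, which were counted and not named. Named genes are Akt1s1, Pou5f1, the annotated interaction calls, the first 6 by p in each direction, and up to 3 members of each list by interaction p, and list members called at an age are also named. The called list members outside those first 3, such as Mrpl39, Psmb5 and Lamtor1, were named after their values were seen. The members and lists were chosen with earlier results of these data known. Alternatives were the pseudocount, filters, scalings, all 15 libraries, no variance trend, removal of length and GC trends, and leaving out each library.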

Additional observations from a re-analysis of the deposited data

Results flagged for a closer look

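Lyrm4, Amd2 and Plxna1 are given here because the genotype effect differed between the ages by the test of the difference itself, with limma and Benjamini-Hochberg adjustment. The interaction was -0.98 for Lyrm4 (adjusted p = 0.0474), 4.92 for Amd2 (adjusted p = 0.00212) and 1.23 for Plxna1 (adjusted p = 0.0474). Amd2 was listed at 0 in both KO libraries at 3 dpp.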

How the results depend on the processing

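Interaction calls numbered 8, against 370 with libraries rescaled to equal totals, 421 with all 15 libraries, 4 without the variance trend and 3 with length and GC trends removed. Calls at 7 dpp numbered 20, against 37 with all 15 libraries, 13 without the trend and 12 with length and GC removed. Calls at 3 dpp numbered 770, against 433 without the filter, 2161 rescaled (189 higher and 1972 lower), 1939 with all 15 libraries, 297 without the trend and 303 with length and GC removed (159 higher and 144 lower). With single libraries left out the ranges were 1 to 107 for the interaction, 10 to 51 at 7 dpp (10 without WT library 3, 11 without KO library 6, 51 without KO library 4) and 97 to 787 at 3 dpp. Leaving out KO library 16 or 18, or WT library 2 or 3, leaves a lone library that is assumed to vary like the other groups. The Akt1s1 interaction was 0.075 rescaled, and -0.335 to 0.0795 with single libraries left out (-0.335 without WT library 2, 0.0795 without WT library 3), and passed in none of these. The median interaction of the cell cycle list was -0.01, against 0.20 rescaled, and that of the meiotic list -0.05, against 0.16 rescaled. That of all genes was 0.06, against 0.24 rescaled. The Plxna1 call was lost without the filter (adjusted p = 0.107) and without the variance trend (0.158), and the Lyrm4 call without the variance trend (0.146). The cause of these shifts was not tested. No paired analysis was possible because the groups share no library numbers. The number of reads is unknown, so the precision of low values cannot be given.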
